A study of Mus musculus with 46 samples.

Results

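The genes described here encode 6 glutathione transferases (Gsta2, Gsta3, Gsta4, Gstm1, Gstm3 and Gstp1) and 4 members of the NRF2 antioxidant system (Ephx1, Nqo1, Gclc and Nfe2l2). They were taken by gene symbol, and all 10 were found among the 55416 genes of the 4 deposited count tables and passed the filter on low counts in every comparison. Bulk RNA sequencing had been done on livers of 46 male mice, snap-frozen, which form 10 groups. It served to compare mice that lack Plvap in hepatic stellate cells, or Cav1 in the whole body, with their controls, in different feeding states. The product of Plvap forms the diaphragms of caveolae and endothelial fenestrae, and Cav1 encodes caveolin-1, the main coat protein of caveolae.

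On western diet with fructose in the drinking water for 6 weeks, followed by a 12 h overnight fast, there were 4 Plvap knockouts and 5 littermate controls. On high-fat diet with normal water for 6 weeks and the same fast there were 5 Plvap knockouts and 5 controls. On chow, 4 Plvap knockouts and 4 controls were refed for 2 h after a 10 h fast, and 5 Plvap knockouts and 6 controls were fasted for 12 h. These 38 mice are labelled C57BL/6JBomTac. The labels give the allele Plvaptm1.1Salm and the transgene Tg(Lrat-cre)1Rshw for knockouts and controls alike, so they do not tell which of these the controls carry. The Cre is driven by Lrat, a gene of retinoid storage that marks stellate cells, so hepatocytes, which make most of the transferase RNA of a liver, are not its target. The remaining mice were on chow and fasted for 6 h. They were 4 whole-body Cav1 knockouts of STOCK Cav1tm1Mls/J and 4 C57BL/6N wild types, so that stock and genotype cannot be told apart. For the refed and Cav1 mice a free-text protocol gives a 12 h fast instead, and the times above are those of the sample characteristics. Ages were not given in the sources used here.

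Glutathione transferases join the tripeptide glutathione to reactive, electrophilic compounds so that these can leave the cell, and they fall into classes, here alpha (Gsta), mu (Gstm) and pi (Gstp). NRF2, encoded by Nfe2l2, is a transcription factor that KEAP1 presents for ubiquitination through CUL3. When electrophiles or oxidants modify KEAP1, NRF2 accumulates and binds antioxidant response elements of its target genes. These include many transferases, the quinone reductase Nqo1, the epoxide hydrolase Ephx1 and Gclc, the catalytic subunit of the enzyme that limits glutathione synthesis. NRF2 is controlled mainly as a protein, so the level of Nfe2l2 RNA is not a measure of its activity.

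Libraries held 6656342 to 23311539 counts. Plvap reached 4.05 to 11.4 CPM (read counts relative to library size, scaled by TMM over all 46 libraries) in the Plvap knockouts, against 18.96 to 42.0 CPM in their controls. Cav1 averaged 0.769 CPM in the Cav1 knockouts and 4.66 CPM in wild types. None of 10 hepatocyte markers was at 0 in any group. Western-diet control A stood apart from its group in Gsta4 and Gstm3. Some results that rest on it are given with and without it, and the others with it only. In whole tissue, fewer cells of a type and less RNA per cell cannot be told apart. The labels name littermates but no litters, cages or days, so p-values measure the spread between these livers.

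Because NRF2 acts through a short element, the promoter windows of 5 of the genes are shown before their levels. RefSeq windows of 300 bases (250 before the transcription start and 50 after it, GRCm38.p6) were at hand for 8 of the 10 genes, with a pair of windows for Gstm1. Each was searched on both strands for TGACNNNGC and for TGAGNNNGC, forms of the antioxidant response element core that cannot begin at the same base. Capitals mark a match, and positions count from the start site, with -1 the last base before it. A match was found in 3 of the genes: Gsta3 (chr1:21240335-21240634, plus strand), Gstp1 (chr19:4037863-4038162, minus strand) and Nfe2l2 (chr2:75704614-75704913, minus strand).
Gsta3: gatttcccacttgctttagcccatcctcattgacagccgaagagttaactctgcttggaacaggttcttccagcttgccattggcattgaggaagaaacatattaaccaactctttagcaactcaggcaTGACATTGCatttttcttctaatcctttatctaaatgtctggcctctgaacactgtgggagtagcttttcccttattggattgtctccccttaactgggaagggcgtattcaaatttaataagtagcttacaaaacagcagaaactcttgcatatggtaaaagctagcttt
Gstp1: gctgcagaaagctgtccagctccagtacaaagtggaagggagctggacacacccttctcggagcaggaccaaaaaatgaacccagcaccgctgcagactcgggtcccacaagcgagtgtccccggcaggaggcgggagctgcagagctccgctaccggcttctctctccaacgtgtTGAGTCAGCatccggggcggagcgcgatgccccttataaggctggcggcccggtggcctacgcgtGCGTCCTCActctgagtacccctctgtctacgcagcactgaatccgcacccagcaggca
Nfe2l2: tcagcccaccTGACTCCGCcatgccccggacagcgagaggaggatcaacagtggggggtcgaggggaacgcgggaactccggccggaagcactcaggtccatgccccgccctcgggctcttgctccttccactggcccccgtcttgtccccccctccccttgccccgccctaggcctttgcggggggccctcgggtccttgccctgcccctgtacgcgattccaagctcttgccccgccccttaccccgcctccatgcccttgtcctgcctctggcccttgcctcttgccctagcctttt
The match of Gsta3 began at -121 and that of Nfe2l2 at -240, both of the first form. Gstp1 held the second form at -74 and, on the other strand, at -9. Of 32851 windows of the same length, 12.4% held the first form, 17.6% the second and 27.8% either. The mu-class genes Gstm1 (chr3:108017769-108018068, minus strand) and Gstm3 (chr3:107969125-107969424, minus strand), which were both lower on the high-fat diet described below, had no match and are shown for comparison.
Gstm1: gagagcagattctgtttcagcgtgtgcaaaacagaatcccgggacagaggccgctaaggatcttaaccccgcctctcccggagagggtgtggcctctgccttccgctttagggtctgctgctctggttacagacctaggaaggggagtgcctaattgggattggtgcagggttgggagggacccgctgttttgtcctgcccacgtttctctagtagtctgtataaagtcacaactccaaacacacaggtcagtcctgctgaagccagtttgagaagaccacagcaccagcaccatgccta
Gstm3: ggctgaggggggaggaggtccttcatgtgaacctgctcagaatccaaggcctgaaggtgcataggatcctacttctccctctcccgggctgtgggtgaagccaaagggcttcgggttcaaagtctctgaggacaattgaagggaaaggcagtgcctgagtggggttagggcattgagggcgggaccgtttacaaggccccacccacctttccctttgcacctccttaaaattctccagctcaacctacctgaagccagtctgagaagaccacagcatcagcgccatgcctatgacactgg
The longest stretch that these Gstm3 and Gstm1 windows shared was 16 bases, tgagaagaccacagca, just downstream of the start sites. The windows of Gsta2, Ephx1 and Nqo1 had no match either, which says only that those letters are not in these windows. Gsta2 and Nqo1 were also lower on high-fat diet in both genotypes, and Ephx1 in controls. Of the genes with a match, Nfe2l2 was lower there in Plvap knockouts, and Gsta3 and Gstp1 were called in neither genotype. A link between a match and the diet change was not tested.

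Per kilobase of summed exon length, Gstp1 had the highest group means in 9 of the 10 groups, at 422.1 to 811 CPM per kb over all 10. That length covers all exons of a gene, 4344 bases for Gsta3 and 1548 bases for Gstp1, and is not that of a single transcript. The ranking depends on it. In CPM Gsta3 was the highest member in wild types (1383 CPM, Gstp1 653 CPM) and Cav1 knockouts (1183 CPM, Gstp1 998 CPM), and Gstp1 in every group of the Plvap line. In wild types Gstm1 was higher, at 480 CPM per kb beside 422.1 CPM per kb for Gstp1. Gstm1 had 149 to 495 CPM per kb over the groups, Gsta3 with 111 to 318 CPM per kb and Ephx1 with 73.1 to 193 CPM per kb. The group ranges of Gstm1 and Gsta3 overlap widely. Gclc had 42.2 to 77.2 CPM per kb, Nfe2l2 13.4 to 23.4 CPM per kb, Gsta4 7.64 to 36.6 CPM per kb, Gsta2 3.53 to 16.7 CPM per kb and Gstm3 1.45 to 33.3 CPM per kb. The last 4 of these ranges overlap. Nqo1 had 1.72 to 4.62 CPM per kb. Gstm3 varied most between groups: its mean of 43.6 CPM in Cav1 knockouts was 22.9 times its mean of 1.90 CPM in western-diet Plvap knockouts. The least variable was Nfe2l2, whose highest group mean, 88.8 CPM in chow-fasted Plvap knockouts, was 1.74 times the lowest, 51.0 CPM in refed controls. Groups come from different tables, so table and condition cannot be told apart in such ranges.

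**Figure D1:**
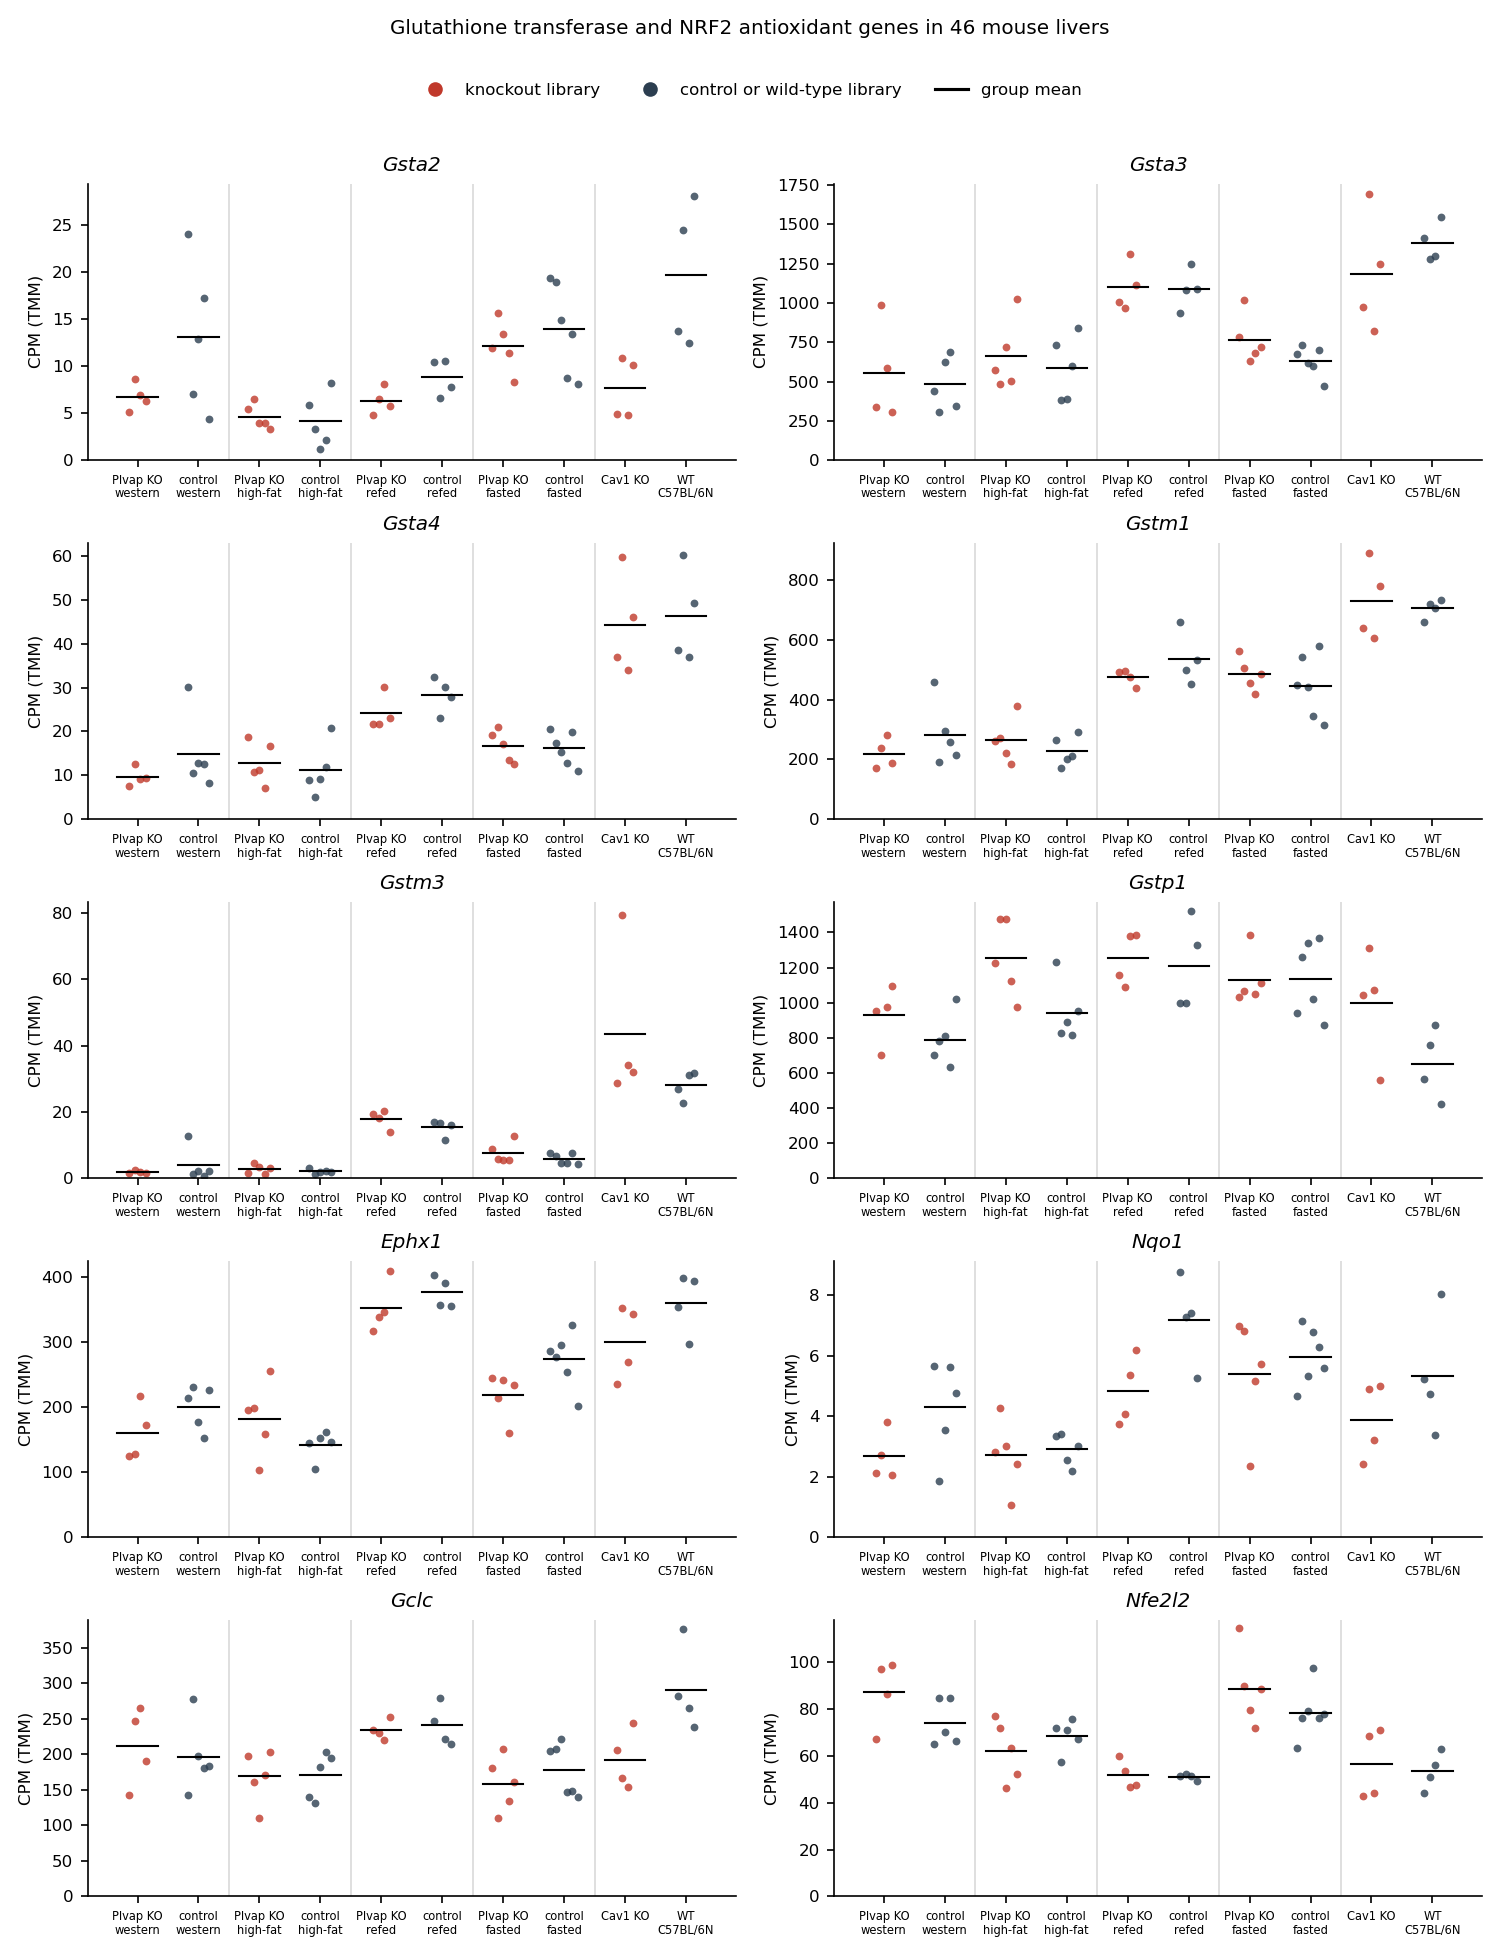
Level of each of the 10 genes in CPM (y axis, linear, from 0) in each of 46 livers, by group (x axis). Points are libraries, red for knockouts and dark for controls or wild types, and lines are group means. Gstm3 is at 0.83 to 12.7 CPM in the fasted and diet groups of the Plvap line, and at 22.7 to 79.5 CPM in the Cav1 knockouts and wild types.

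Part of the transcript sequence of some of these genes also occurs in other genes. Of all 50-base windows in the transcripts of Gsta2, 49.8% also occur in transcripts of other genes, mainly Gsta1. The share was 33.7% for Gstp1 (with Gstp2 and Gstp-ps), 28.8% for Gstm3 and 18.9% for Gstm1, and at most 1.70% for each of the other 6 genes. Values of Gsta2, Gstp1, Gstm3 and Gstm1 are therefore uncertain as to the exact paralog.

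Loss of Plvap in stellate cells left no member past the threshold in any feeding state (edgeR quasi-likelihood test, Benjamini-Hochberg adjusted over all genes, threshold 0.05). None of 10 passed on western diet, where 0.0148% of all genes tested did, and none on high-fat diet, where 0.281% did. None passed in refed livers, where 0.0227% of genes did, and none in chow-fasted livers, where 2.25% did. At an unadjusted p under 0.05 there were 1, 1, 2 and 1 members in those comparisons. DESeq2 made no call among the members in any of the 4, while it called 21, 244, 59 and 713 of all genes. Here and below, the share of all genes at that unadjusted level is not given, so counts at that level are no result about the members. The median change of the members was -0.35 on western diet, 0.19 on high-fat diet, -0.06 in refed livers and 0.01 in fasted livers (log2), beside -0.02, 0.01, 0.01 and -0.01 over all genes tested. The western-diet median is given only with control A, the highest western-diet control in Gsta2, Gsta4, Gstm1 and Gstm3. The comparisons on the diets and on chow use separate controls.

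Among the transferases, Gsta2 (chr9:78238300-78263070, GRCm39, as all gene coordinates below), an alpha-class enzyme, had 5.07, 8.64, 6.92 and 6.34 CPM in western-diet Plvap knockouts, against 24.1, 7.01, 12.9, 17.2 and 4.43 CPM in controls. The knockouts lay within the range of the controls, and the change was -0.97 ± 0.47 (log2, SE; adjusted p = 0.52, edgeR). That change includes control A, which had the 24.1 CPM. In refed livers Gsta2 had 4.80, 6.46, 8.09 and 5.76 CPM in Plvap knockouts, against 10.4, 6.61, 10.6 and 7.79 CPM in controls, a change of -0.49 ± 0.22 with an adjusted p of 0.64. The labels name no pairs, though refed libraries of the same replicate letter correlated. Matched by letter, the knockout was the lower one in 4 of 4 cases, with an adjusted p of 0.28 with the letter as a block. Gstp1 (chr19:4085407-4087985), the pi-class enzyme, had 1224, 1479, 1478, 1121 and 978 CPM in high-fat Plvap knockouts, against 1230, 828.8, 888, 818 and 954.6 CPM in controls. Every knockout stood above 4 of the 5 controls, the change was 0.41 ± 0.16, and the adjusted p was 0.23.

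Of the NRF2 targets, Nqo1 (chr8:108114857-108129838) had the lowest adjusted p of the members when the 4 feeding states were averaged in a joint model of the 38 livers. Its change was -0.37 ± 0.14 with an adjusted p of 0.11 (edgeR), and no member passed, while 5.58% of all genes did. Nqo1 had 3.73, 4.07, 5.35 and 6.19 CPM in refed Plvap knockouts, against 8.74, 7.28, 7.41 and 5.27 CPM in controls. There 3 of 4 controls were above every knockout, and the knockout was lower in 3 of 4 cases matched by letter (adjusted p = 0.30 with the letter as a block). On western diet it had 2.13, 2.72, 3.79 and 2.05 CPM in knockouts, against 5.66, 1.87, 3.54, 5.62 and 4.77 CPM in controls, which overlap. Without western-diet control B the averaged change of Nqo1 was called, with an adjusted p of 0.0476. Ephx1 (chr1:180803775-180848469) had 244, 215, 242, 161 and 234 CPM in chow-fasted Plvap knockouts, against a median of 281 CPM in controls, with a range of 202 to 326. The ranges overlapped, and its change was -0.33 ± 0.13 (adjusted p = 0.19).

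Nfe2l2 (chr2:75505857-75534985), which encodes NRF2 itself, had 114, 89.6, 79.4, 71.7 and 88.6 CPM in chow-fasted Plvap knockouts, against a median of 77.1 CPM in controls, with a range of 63.4 to 97.5. The groups overlapped, and the change was 0.17 ± 0.12 (adjusted p = 0.47, edgeR). Averaged over the 4 states it was 0.08 ± 0.07. Gclc (chr9:77661817-77701767) changed by -0.03 ± 0.10 over the 4 states, and Gstm1 by -0.05 ± 0.10. None of these passed.

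Levels of hepatocyte markers are given here because most of these enzymes are made by hepatocytes. The summed level of 10 such markers was 93598 to 119939 CPM in chow-fasted Plvap knockouts, against 57987 to 72741 CPM in controls. In refed livers it was 98375 to 103471 CPM in knockouts and 65339 to 74631 CPM in controls, and on high-fat diet 76261 to 107601 CPM in knockouts and 46744 to 52790 CPM in controls. On western diet the ranges overlapped, at 68174 to 93556 CPM in knockouts and 49013 to 68398 CPM in controls. Only Alb, which encodes albumin, passed in fasted and in high-fat livers, and no marker of the 10 passed in refed or western-diet livers. Alb rose by 0.96 ± 0.12 in fasted livers (log2, SE, edgeR adjusted p = 0.00058), and averaged over the 4 states 3 markers rose and none fell. Across all genes tested, log2 fold changes had a Spearman correlation with exon length of -0.211 in fasted livers, 0.269 in refed livers, -0.147 on western diet and -0.111 on high-fat diet, a description with no test. The part of these markers and of length in the members' values was not tested.

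**Figure D2:**
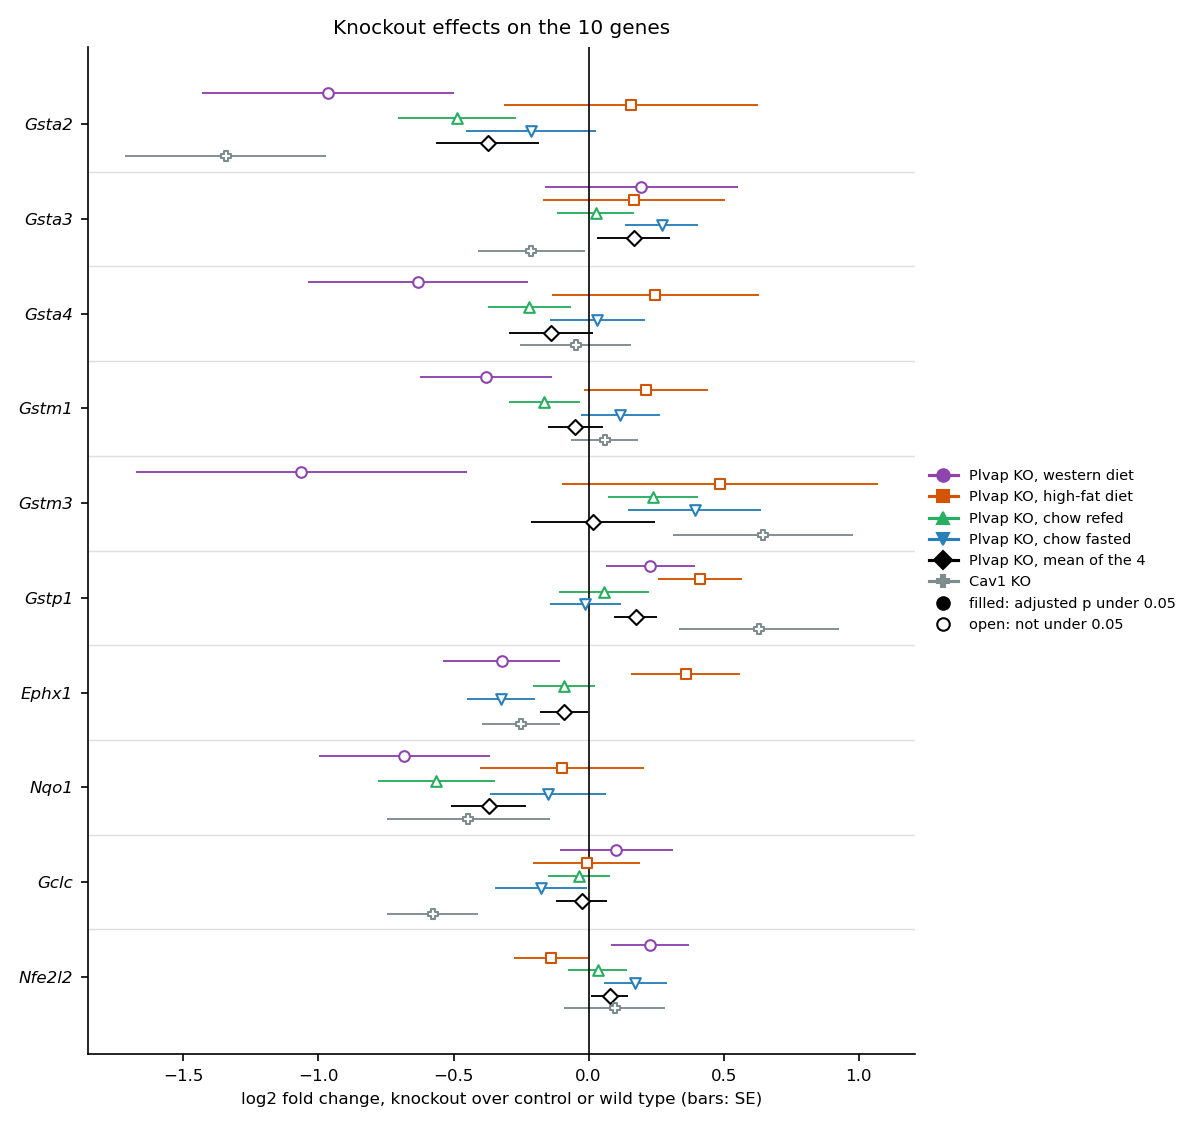
Log2 fold change (x axis, bars are SE) of each of the 10 genes (y axis) for Plvap knockout over control in 4 feeding states and their mean, and for Cav1 knockout over C57BL/6N wild type. All symbols are open, since no adjusted p was under 0.05, and the Gsta2 value of the Cav1 knockouts lies lowest at -1.34.

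Cav1 knockouts had lower values of Gsta2 and Gclc than wild types, though neither passed. Gsta2 had 4.96, 10.9, 4.78 and 10.1 CPM in Cav1 knockouts, against 13.7, 24.5, 12.4 and 28.1 CPM in wild types. It was the only member whose groups did not overlap, with a change of -1.34 ± 0.37 and an adjusted p of 0.096 (edgeR). The share of all genes without overlap is not given, so that count is no result about the members. Gclc had 207, 167, 154 and 245 CPM in Cav1 knockouts, against 283, 376, 266 and 238 CPM in wild types, where 1 wild type lay below the highest knockout. Its change was -0.58 ± 0.17 (adjusted p = 0.095). In this comparison 4.68% of all genes passed with edgeR, and 2 members had an unadjusted p under 0.05. DESeq2 called both Gsta2 (adjusted p = 0.0018) and Gclc (adjusted p = 0.029), and it called 939 of all genes, where edgeR called 607. Without Cav1 knockout D, Gclc was also called by edgeR. The median change of the members was -0.13, beside 0.02 over all genes tested.

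Gstm3 (chr3:107871012-107876599), a mu-class enzyme, had 28.7, 79.5, 34.2 and 32.0 CPM in Cav1 knockouts, against 27.04, 22.7, 31.0 and 31.8 CPM in wild types. Knockout B stood apart, and without it the change was 0.17 in place of 0.65 (adjusted p = 0.51 and 0.33, edgeR). Gstp1 had 1046, 1311, 1075 and 560 CPM in Cav1 knockouts, against 565, 756, 871 and 420.97 CPM in wild types. Here 3 of 4 knockouts were above every wild type, at a change of 0.63 ± 0.30 (adjusted p = 0.30). Of the 10 hepatocyte markers, 3 rose and none fell in Cav1 knockouts. Log2 fold changes of all genes tested had a Spearman correlation of -0.291 with exon length, which is 1177 bases for Gsta2 and 3766 bases for Gclc. The part of either in these values was not tested.

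High-fat diet came with less RNA of several of these enzymes than chow after the same 12 h fast, in both genotypes. In Plvap knockouts 5 members fell (Gsta2, Gstm1, Gstm3, Nqo1 and Nfe2l2) and none rose, while 15.4% of all genes passed and 7.22% of all genes passed as lower. In controls 5 fell (Gsta2, Gstm1, Gstm3, Ephx1 and Nqo1) and none rose, while 8.46% of all genes passed and 4.25% of all genes passed as lower. The median change of the members was -0.42 in knockouts and -0.74 in controls, beside 0.03 and 0.01 over all genes. The diet livers and the chow livers come from separate tables, so table and condition cannot be told apart.

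The mu-class gene Gstm1 (chr3:107919571-107925289) had 261, 272, 222, 186 and 378.8 CPM in high-fat Plvap knockouts, against 564, 506, 457, 419.2 and 486 CPM in chow-fasted ones. Every high-fat knockout was below every chow-fasted knockout, at a change of -0.87 ± 0.20 (adjusted p = 0.0031, edgeR). In controls Gstm1 had 264, 172, 201, 211 and 292 CPM on high-fat diet, against a median of 445 CPM on chow with a range of 315 to 578. These groups did not overlap either, at -0.96 ± 0.19 (adjusted p = 0.0015). Gstm1 stayed past the threshold in all 42 alternatives of each comparison.

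Gstm3 was scarce on the diet. It had 1.67, 4.64, 3.54, 1.36 and 3.17 CPM in high-fat Plvap knockouts, against 8.96, 5.91, 5.49, 5.63 and 12.7 CPM in chow-fasted ones. In controls it had 3.19, 1.26, 1.79, 2.18 and 2.03 CPM on high-fat diet, against a median of 5.65 CPM on chow with a range of 4.23 to 7.73. Neither pair of groups overlapped. The change was -1.41 ± 0.43 in knockouts (adjusted p = 0.025, edgeR) and -1.51 ± 0.45 in controls (adjusted p = 0.033). The call in knockouts was lost without fasted knockout E or high-fat knockouts A or D, and that in controls without fasted controls A, B or E or high-fat controls B, C, D or E. Over the alternatives the adjusted p reached 0.087 in knockouts and 0.094 in controls.

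Gsta2 had 5.44, 6.48, 3.90, 3.99 and 3.33 CPM in high-fat Plvap knockouts, against 12.0, 15.6, 13.5, 11.4 and 8.36 CPM in chow-fasted ones. These groups did not overlap, and the change was -1.37 ± 0.37 (adjusted p = 0.012, edgeR). In controls it had 5.89, 3.27, 1.20, 2.18 and 8.22 CPM on high-fat diet, against a median of 14.2 CPM on chow with a range of 8.15 to 19.4. The highest high-fat control just exceeded the lowest chow control, and the change was -1.73 ± 0.37 (adjusted p = 0.0031).

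Among the NRF2 targets, Nqo1 had 2.80, 4.27, 3.02, 1.07 and 2.43 CPM in high-fat Plvap knockouts, against 6.97, 6.80, 2.35, 5.16 and 5.72 CPM in chow-fasted ones, a change of -0.96 ± 0.27 (adjusted p = 0.013, edgeR). In controls it had 3.36, 3.41, 2.54, 2.18 and 3.01 CPM on high-fat diet, against a median of 5.94 CPM on chow with a range of 4.65 to 7.13. The control groups did not overlap, while fasted knockout C lay within the high-fat knockouts. In knockouts Ephx1 had 196, 198, 103, 159 and 256 CPM on high-fat diet, against 244, 215, 242, 161 and 234 CPM on chow, a change of -0.25 ± 0.17 that did not pass (adjusted p = 0.34). In controls Ephx1 had 145, 106, 153, 162 and 147 CPM on high-fat diet, against a median of 281 CPM on chow with a range of 202 to 326. That change was -0.93 ± 0.17 (adjusted p = 0.00052), without overlap. Whether the diet change of Ephx1 differs between genotypes was not tested across tables.

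Gclc, the gene of glutathione synthesis, changed by 0.11 ± 0.18 in high-fat knockouts and by -0.05 ± 0.18 in high-fat controls, and Gsta3 (chr1:21310813-21335885) by -0.20 ± 0.26 and -0.09 ± 0.25. None of these passed. Nfe2l2 had 77.1, 71.7, 46.3, 63.2 and 52.5 CPM in high-fat Plvap knockouts, against 114, 89.6, 79.4, 71.7 and 88.6 CPM in chow-fasted ones. The ranges overlapped between 71.7 and 77.1 CPM, and the change was -0.50 ± 0.13 (adjusted p = 0.0081, edgeR). In controls the change of Nfe2l2 was -0.18 ± 0.12 (adjusted p = 0.40).

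On western diet the mu-class genes were again low. Gstm1 and Gstm3 fell in Plvap knockouts relative to chow and none rose, while 2.27% of all genes passed and 1.25% were lower. In controls no member passed, while 1.81% of all genes did, and 3 members had an unadjusted p under 0.05. DESeq2 called 2 in controls, Gstm1 (adjusted p = 0.031) and Gstp1 (adjusted p = 0.028). The median change of the members was -0.61 in knockouts and -0.41 in controls, beside 0.01 over all genes in both. The value of the controls includes western-diet control A. These diets and chow are again in separate tables, and the chow-fasted livers are the same as above.

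Gstm1 had 171, 237, 282 and 188 CPM in western-diet Plvap knockouts, all below the 419.2 to 564 CPM of chow-fasted knockouts, at a change of -1.14 ± 0.21 (adjusted p = 0.0021, edgeR). Gstm3 had 1.72, 2.45, 2.00 and 1.45 CPM in them, below the 5.49 to 12.7 CPM of chow-fasted knockouts, at -2.01 ± 0.49 (adjusted p = 0.024). The Gstm3 call was lost without fasted knockout E or without any of western-diet knockouts A, B, C or D, with adjusted p of up to 0.11. In western-diet controls Gstm1 had 459, 191, 295, 258 and 213 CPM and Gstm3 had 12.6, 1.40, 2.26, 0.830 and 2.21 CPM. Control A, which gives the first of each of these values, was the highest of the 5 in both genes, and only in Gstm3 did it pass the limit used for a library that stands apart (Dixon's test). It was also high in Gsta4 (chr9:78090056-78116631), an alpha-class enzyme that clears the lipid peroxidation product 4-hydroxynonenal, at 30.2 CPM against 8.16 to 12.8 CPM in the other western-diet controls.

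With control A, the change of western-diet over chow-fasted controls was -0.65 ± 0.19 for Gstm1 (adjusted p = 0.068, edgeR) and -0.55 ± 0.41 for Gstm3 (adjusted p = 0.58). Without it, both were called, at -0.89 (adjusted p = 0.0046) for Gstm1 and -1.78 (adjusted p = 0.0014) for Gstm3. The same library sets the sign of the knockout change of Gstm3 on western diet, which was -1.06 ± 0.61 with it and 0.16 without it, neither of them called. Gstm1 in controls was also called without fasted control F. Gstp1 (-0.51 ± 0.15, adjusted p = 0.063) was also called in controls by edgeR without fasted controls A or F, refed control A or western-diet control E. In knockouts Nqo1 (-0.99 ± 0.29, adjusted p = 0.059) was called by DESeq2 (adjusted p = 0.026), and by edgeR without fasted knockout C, western-diet control B, western-diet knockout C or high-fat knockouts B or D.

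**Figure D3:**
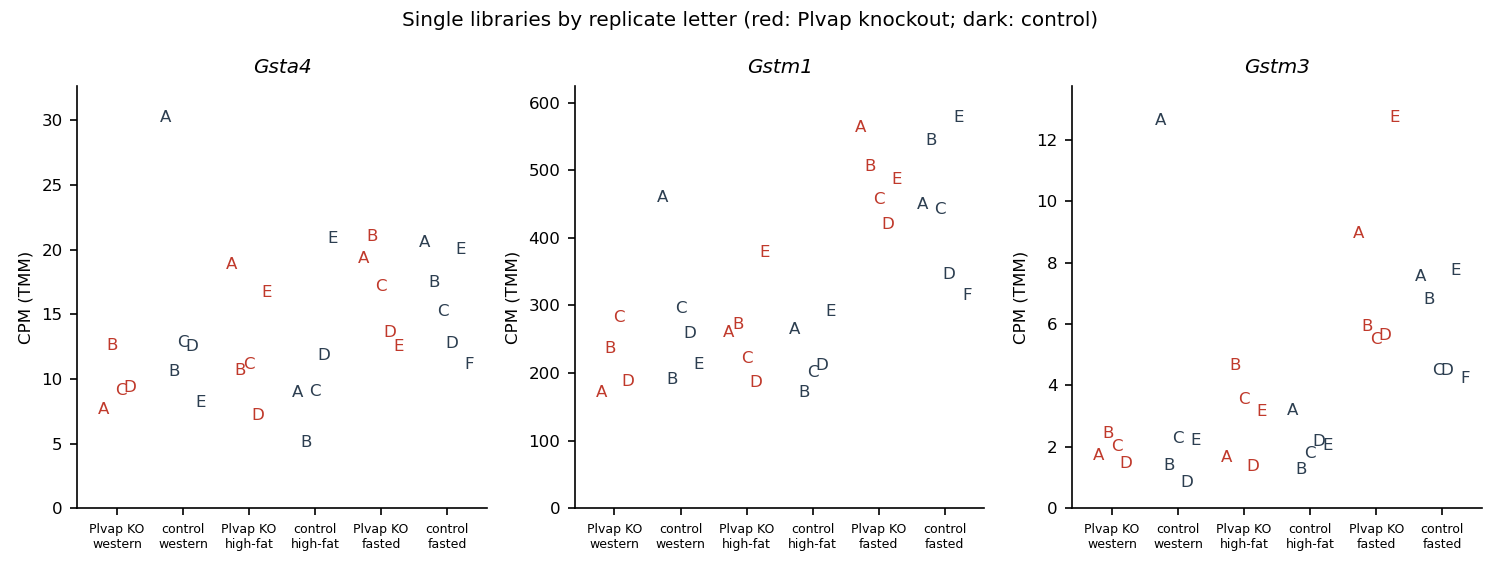
Level in CPM (y axis, linear, from 0) of Gsta4, Gstm1 and Gstm3 in single livers of the diet and chow-fasted groups (x axis), each drawn as its replicate letter. Western-diet control A lies at 30.2, 459 and 12.6 CPM, above the other western-diet livers of both genotypes.

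Between the diets, 1 member passed in Plvap knockouts, Nfe2l2, which encodes NRF2. It had 67.1, 96.9, 86.4 and 98.8 CPM in western-diet Plvap knockouts, against 77.1, 71.7, 46.3, 63.2 and 52.5 CPM in high-fat ones. Western-diet knockout A lay within the high-fat range, and the rise was 0.47 ± 0.14 (adjusted p = 0.045, edgeR), while 8.45% of all genes passed and 4.43% were higher. The call rests on single libraries: it held in 12 of 25 alternatives, with adjusted p of 0.020 to 0.12. It was lost without western-diet controls C or E, western-diet knockouts B, C or D, high-fat controls A, C or E, or high-fat knockouts C, D or E. In controls Nfe2l2 changed by 0.11 ± 0.14 and no member passed, while 2.09% of all genes did. There 2 members had an unadjusted p under 0.05.

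In those controls Gsta2 had 24.1, 7.01, 12.9, 17.2 and 4.43 CPM on western diet, against 5.89, 3.27, 1.20, 2.18 and 8.22 CPM on high-fat diet. The ranges overlapped, and the change of 1.65 ± 0.46 had an adjusted p of 0.071 (edgeR), and of 0.019 with DESeq2. Without western-diet control E or high-fat control E, edgeR called it too. The difference of the Plvap effect between the diets did not pass for any member, nor for any gene (0%), and 1 member had an unadjusted p under 0.05. Its largest values were -1.55 ± 0.85 for Gstm3 and -1.12 ± 0.66 for Gsta2, and without western-diet control A they were -0.31 and -0.75.

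After refeeding, Gstm3, Ephx1 and Gclc were higher than in 12 h fasted livers and Nfe2l2 was lower, in both genotypes. This contrast reached many genes: 47.2% of all genes passed in Plvap knockouts and 46.9% in controls, so the members' share is near that of all genes. In knockouts 3 members rose (Gstm3, Ephx1 and Gclc), where 24.6% of all genes rose, and 2 fell (Nfe2l2 and Gsta2), where 22.6% fell. In controls 5 rose (Gsta3, Gsta4, Gstm3, Ephx1 and Gclc), where 24.1% of all genes rose, and 1 fell (Nfe2l2), where 22.7% fell. The median change of the members was 0.36 in each genotype, beside 0.0048 and 0.011 over all genes. The refed and fasted livers are in separate tables, so table and feeding cannot be told apart, and the fasted livers are those of the diet comparisons. Kupffer cell markers were lower in the refed livers: the summed level of 10 was 370.4 to 417.3 CPM in refed Plvap knockouts, against 745.6 to 1051.8 CPM in fasted ones, and 276.7 to 414.6 CPM in refed controls, against 525.9 to 833.1 CPM in fasted ones. Of the 10, 6 fell in knockouts and 7 in controls, and none rose. Of 10 hepatocyte markers 1 rose and 4 fell in knockouts, and 2 rose and 4 fell in controls. The Spearman correlation of log2 fold change with exon length over all genes was 0.231 in knockouts and 0.0759 in controls. The part of these in the members' values was not tested.

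Gstm3 had 19.4, 18.2, 20.3 and 14.01 CPM in refed Plvap knockouts, against 8.96, 5.91, 5.49, 5.63 and 12.7 CPM in fasted ones, a rise of 1.23 ± 0.41 (adjusted p = 0.014, edgeR). In controls it had 17.0, 16.8, 11.4 and 16.0 CPM after refeeding, against a median of 5.65 CPM and a highest value of 7.73 CPM fasted, a rise of 1.39 ± 0.39 (adjusted p = 0.0044). Neither pair of groups overlapped. Gsta3, the alpha-class enzyme with the highest level, changed by 0.55 ± 0.28 in knockouts (adjusted p = 0.10). In refed controls it had 933, 1083, 1248 and 1088 CPM, against 469 to 733 CPM in fasted ones, and rose by 0.80 ± 0.26 (adjusted p = 0.013). Gsta4 changed by 0.56 ± 0.31 in knockouts (adjusted p = 0.14), with groups that did not overlap. In refed controls it had 32.4, 23.1, 30.1 and 27.8 CPM, against 11.1 to 20.6 CPM in fasted ones, and rose by 0.82 ± 0.29 (adjusted p = 0.022). That call was lost without fasted control F or refed control A.

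Gsta2 was lower after refeeding. It had 4.80, 6.46, 8.09 and 5.76 CPM in refed Plvap knockouts, below the 8.36 to 15.6 CPM of fasted ones, and fell by 0.93 ± 0.39 on the log2 scale (adjusted p = 0.048, edgeR). The call held in 21 of 42 alternatives and was lost without any of 20 of the 38 libraries, among them refed knockouts A, B and D and fasted knockouts A, B, C and D, with adjusted p of up to 0.12. In controls the change was -0.65 ± 0.36 (adjusted p = 0.14). Gstm1 (-0.0041 ± 0.21 in knockouts, 0.28 ± 0.20 in controls) and Gstp1 (0.18 ± 0.16 and 0.11 ± 0.16) did not pass.

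Ephx1, the microsomal epoxide hydrolase, had 317, 338, 346 and 410 CPM in refed Plvap knockouts, above the 161 to 244 CPM of fasted ones, and rose by 0.71 ± 0.18 (adjusted p = 0.0014, edgeR). In controls it had 403.1, 358, 390 and 355 CPM after refeeding, above the 202 to 326 CPM of fasted ones, and rose by 0.47 ± 0.17 (adjusted p = 0.024). The call in controls was lost without fasted control F or refed controls A or C. Gclc had 234, 230, 220 and 253 CPM in refed knockouts, above the 111 to 207 CPM of fasted ones, a rise of 0.59 ± 0.19 (adjusted p = 0.013). Its rise of 0.44 ± 0.19 in controls (adjusted p = 0.048) held in 19 of 42 alternatives, was lost without any of 21 of the 38 libraries, and did not hold with DESeq2.

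Nfe2l2 was the member with the lowest adjusted p of the refed comparisons. It had 60.02, 53.4, 46.8 and 47.7 CPM in refed Plvap knockouts, below the 71.7 to 114 CPM of fasted ones, and fell by 0.75 ± 0.14 on the log2 scale (adjusted p = 3.4e-05, edgeR). In controls it had 51.5, 52.1, 51.4 and 49.1 CPM after refeeding, below the 63.4 to 97.5 CPM of fasted ones, and fell by 0.61 ± 0.13 on the log2 scale (adjusted p = 0.00030). Both calls held in all 42 alternatives. Nqo1, its target, changed by -0.13 ± 0.27 in knockouts and 0.28 ± 0.25 in controls and did not pass.

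**Figure D4:**
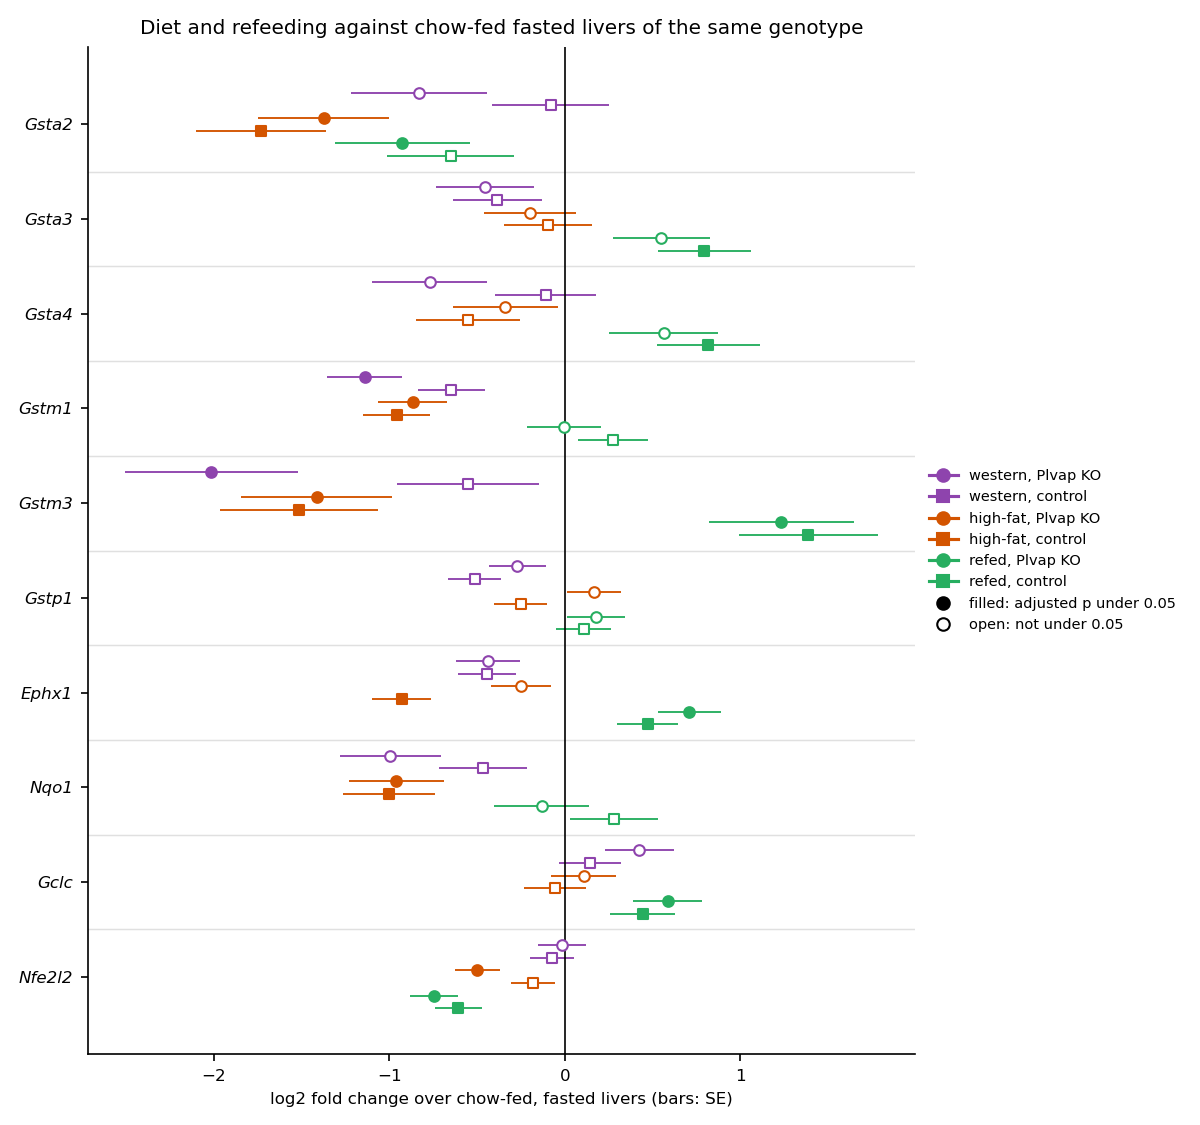
Log2 fold change (x axis, bars are SE) of each of the 10 genes (y axis) on western diet, on high-fat diet and after refeeding, each over chow-fed fasted livers of the same genotype, with circles for Plvap knockouts and squares for controls. Filled symbols passed an adjusted p of 0.05. Gstm3 lies at -2.01 to -0.55 on the diets and at 1.23 to 1.39 after refeeding, and Nfe2l2 at -0.75 and -0.61 after refeeding.

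Of 100 further genes of the same system in 5 lists (other glutathione transferases, glutathione metabolism, NRF2 control, other NRF2 targets and antioxidant enzymes, NADPH supply), 90 or 91 were tested. The lists were chosen with earlier results of these data known. Here and below, their shares beside those of all genes are therefore descriptions with no test. In Plvap knockouts none passed on western diet or in refed livers. On high-fat diet Gsto1, an omega-class transferase, rose by 0.48 ± 0.10 (adjusted p = 0.035, edgeR), and Ugdh, which makes UDP-glucuronate, fell by 0.58 ± 0.11 on the log2 scale (adjusted p = 0.030). In chow-fasted livers 4 fell and none rose. They were Ephx2, the soluble epoxide hydrolase, with 960 ± 133 CPM in knockouts and 1588 ± 92.3 CPM in controls (SD, n = 5 and 6, adjusted p = 0.0022), Entpd5, Aox1 and Gsr, the glutathione reductase, which had a change of -0.39 ± 0.08 (adjusted p = 0.021).

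Averaged over the 4 states, 5 of 91 list genes rose and 11 fell in Plvap knockouts, or 17.6%, beside 5.58% of all genes. Among them were Gsr (-0.32 ± 0.05, adjusted p = 4.6e-05, edgeR), Aldh3a2, a fatty aldehyde dehydrogenase (-0.997 ± 0.15, adjusted p = 9.0e-05), and Gstk1, a mitochondrial and peroxisomal transferase (-0.28 ± 0.05, adjusted p = 0.00032). Ggct, which acts in glutathione breakdown, rose by 0.47 ± 0.09 (adjusted p = 0.00056). Of the NRF2 control list, Sqstm1 and Mafg fell by 0.23 and 0.24 on the log2 scale, with adjusted p of 0.0044 and 0.040, and Keap1 and Cul3 did not pass. The median of the list genes was -0.04, beside -0.0043 over all genes.

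In Cav1 knockouts 3 list genes rose and 7 fell of 90, or 11.1% of them, beside 4.68% of all genes. Glrx, a glutaredoxin, rose by 1.26 ± 0.13 (adjusted p = 0.00030, edgeR) and Prdx4, a peroxiredoxin of the endoplasmic reticulum, by 0.70 ± 0.15 (adjusted p = 0.024). Cyp2a5, a cytochrome P450 that NRF2 controls in mouse liver, fell by 1.19 ± 0.14 on the log2 scale (adjusted p = 0.00048), and Gstm6, a neighbour of Gstm1 in the mu-class cluster, by 0.76 ± 0.14 (adjusted p = 0.012).

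On high-fat diet relative to chow, 8 list genes rose and 15 fell in Plvap knockouts, and 4 rose and 19 fell in controls, of 91 each. That is 25.3% in each genotype, beside 15.4% of all genes in knockouts and 8.46% in controls. Htatip2, an NRF2 target, fell by 1.27 ± 0.16 on the log2 scale in knockouts (adjusted p = 1.2e-05, edgeR) and by 1.32 ± 0.16 in controls (adjusted p = 1.1e-06). Cbr1, a carbonyl reductase, fell by 0.97 ± 0.16 in knockouts and by 1.07 ± 0.15 in controls on the same scale. Ftl1, the ferritin light chain, and Gsto1 fell in both genotypes as well. Ephx2 went the other way in knockouts and rose by 0.50 ± 0.11 (adjusted p = 0.0029). Of 10 hepatocyte markers 4 fell in each genotype and none rose. Of 10 periportal markers 5 fell in knockouts and 6 in controls and none rose, and of 10 pericentral markers 3 rose in knockouts and 1 in controls, values whose part in the members' changes was not tested.

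After refeeding, 15 list genes rose and 22 fell in knockouts, and 19 rose and 19 fell in controls, shares of 40.7% and 41.8% beside 47.2% and 46.9% of all genes. Gsr rose by 0.73 ± 0.10 in knockouts (adjusted p = 1.3e-07, edgeR) and by 0.58 ± 0.09 in controls (adjusted p = 3.7e-06). Txnrd1, a thioredoxin reductase, rose by 0.75 ± 0.11 in knockouts and 0.79 ± 0.11 in controls. In the NRF2 control list, Gsk3b, a kinase that marks NRF2 for degradation, rose by 1.18 ± 0.15 in knockouts and 0.94 ± 0.14 in controls. Keap1 rose by 0.58 ± 0.10 in knockouts (adjusted p = 7.9e-06) and by 0.63 ± 0.09 in controls (adjusted p = 8.5e-07). Cul3 fell by 0.60 ± 0.10 in knockouts and by 0.68 ± 0.10 in controls on the log2 scale. Prdx4 fell by 1.00 ± 0.11 in knockouts and by 1.14 ± 0.11 in controls on that scale.

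Within groups, Gsta2, Gsta3, Gsta4 and Gstm1 were correlated from liver to liver. Over 46 livers, with each value centred on its group mean, Pearson's r of log2 CPM was 0.758 between Gsta4 and Gstm1, and the lowest of the 6 pairs among these 4 genes was 0.525, between Gsta2 and Gsta3. Gstm3 had an r of 0.668 with Gstm1, but of 0.47 with Gsta4, 0.299 with Gsta2 and 0.231 with Gsta3. Some pairs with NRF2 targets other than transferases were as high, with 0.536 between Ephx1 and Gclc and 0.484 between Gstm1 and Ephx1. Gstp1 lay between -0.137 and 0.113 with the other transferases. Of 36 pairs among the 9 members over 5 CPM, 28 were positive, with a median of 0.158 and a range of -0.212 to 0.758. Pairs of 1 library share its depth and scaling, and Gstm1 and Gstm3 share part of their transcript sequence. All these values include western-diet control A, the highest of its group in Gsta2, Gsta4, Gstm1 and Gstm3, and are given with it only. The genes most like the mean of the members were Ttr, which encodes transthyretin, with an r of 0.707, Bdh2 with 0.702, 9130409I23Rik with 0.678, Mgst3, a microsomal transferase, with 0.671 and Rdm1 with 0.670.

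For 2 of 9 single members the likest gene was one with related sequence. It was Gstm6 for Gstm1 (r = 0.830) and Gstp-ps, a gene that shares sequence with it, for Gstp1 (r = 0.841). Outside the family it was Rida for Gsta2 (r = 0.665), Tk1 for Gsta3 (r = 0.789), Bdh2 for Gsta4 (r = 0.749) and Npc2 for Gstm3 (r = 0.750). For Ephx1 it was Pon2 (r = 0.662), for Gclc March8 (r = 0.728) and for Nfe2l2 Dusp6 (r = 0.664). These values describe 46 livers and carry no test.

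**Figure D5:**
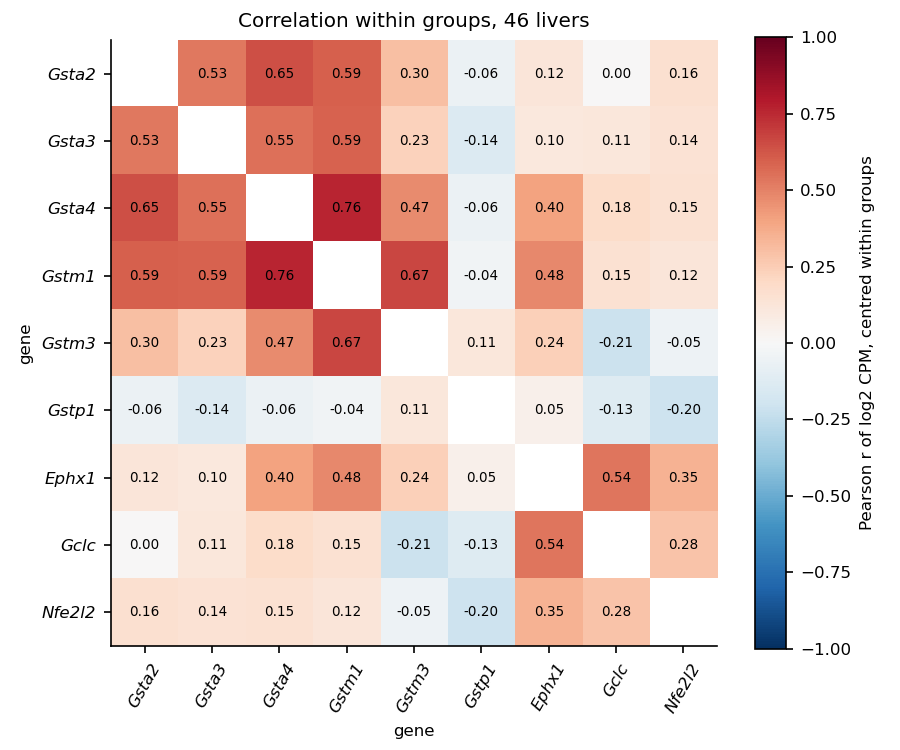
Pearson's r of log2 CPM, centred within the 10 groups, for each pair of 9 genes (both axes) over 46 livers, on a scale of -1 to 1. The block of Gsta2, Gsta3, Gsta4 and Gstm1 is red throughout, up to 0.76 for Gsta4 with Gstm1, and the row of Gstp1 lies between -0.20 and 0.11.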

How the data were processed

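Total RNA of 46 mouse livers was made into NEBNext Ultra libraries and sequenced in bulk, as the labels' protocols state. The authors aligned reads with STAR 2.7.8a and counted them per gene with featureCounts 2.0 on GRCm39, with FastQC 0.11.9 and MultiQC 1.10.1 for quality control, per the submitters' processing notes. Per the file headers, the deposited values are unnormalised read counts for each Ensembl gene, and a further column of another kind gives its summed exon length, used for CPM per kb. Whether counting used the strand is not given in the sources used here. Symbols were joined by Ensembl identifier for 52083 of 55416 genes (94.0%).

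The 4 tables were fitted in R 4.3.3 with edgeR 4.0.16 (robust quasi-likelihood F-test, TMM scaling). The low-count filter was filterByExpr with a total of at least 15 and a minimum count of 10. A call needed a Benjamini-Hochberg adjusted p under 0.05, adjusted over every gene tested. The fasted, refed and Cav1 comparisons used their own table, the diet comparisons the 19 libraries of the diet table, and comparisons across tables the 38 libraries of the Plvap line joined by gene. CPM values are scaled by TMM over 46 libraries, and log2 CPM values have a prior count of 2. The test was tried on simulated counts with known folds. Alternatives were DESeq2 1.42.0, its size factors, other filters, a block on the replicate letter, fits of the compared groups alone, and leaving out each library. The members and gene lists were chosen with earlier results of these data known. Named were all members and the genes most like the members. List genes were named from the up to 6 called ones with the smallest p in each of 15 comparisons, and not all of these are given. In the averaged Plvap effect Sqstm1, Mafg, Keap1 and Cul3 were named after their values were seen.

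Replicate letters were checked for pairing. In refed livers the deviations of same-lettered libraries correlated at 0.305 to 0.362, so there livers were also matched by letter. The labels state no pairing, and that matching rests on these correlations alone. In the other experiments the lowest value was under 0.1 (fasted -0.0263, western -0.276, high-fat -0.191, Cav1 -0.00412). No library pair within a group, of 85, was identical. No intervals or floors were drawn from counts.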

Additional observations from a re-analysis of the deposited data

Results flagged for a closer look

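In 4 of 100 sets, each of 1 gene in 1 group of 4 to 6 livers, the highest liver lay farther from the others than Dixon's critical value. Chance gives about 1 such set in 20. In western-diet control A, Gsta4 was at 30.2 CPM, beside 8.16 to 12.8 CPM in the other controls of its group. The same liver had 12.6 CPM of Gstm3, beside 0.830 to 2.26 CPM. Cav1 knockout B had 79.5 CPM of Gstm3, beside 28.7 to 34.2 CPM in the other Cav1 knockouts. Chow-fasted Plvap knockout C had 1386 CPM of Gstp1, beside 1030 to 1113 CPM in the other 4.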

How the results depend on the processing

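No member's called change reversed its sign in any alternative run. The DESeq2 size factors and the filter at 1 CPM moved no count of called members by more than 1.5 times. With DESeq2 the members called were 2 in Cav1 knockouts (0 with edgeR), 1 in western against high-fat controls (0), and 2 in western-diet against chow controls (0). Without a filter on low counts they were 1 in Cav1 knockouts (0) and 1 in western-diet controls (0), 1 in western-diet knockouts against chow (2), and 3 in refed livers of each genotype (5 in knockouts, 6 in controls). Of all genes, 1279 were then called in Cav1 knockouts (607 with the filter). Against chow, 227 were called in western-diet controls (258) and 183 in western-diet knockouts (323). In refed livers 6071 were called in knockouts (6723) and 6215 in controls (6670). With only the groups compared the call of western against high-fat knockouts was lost (0 in place of 1). Of all genes 782 were called there in place of 1143.

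With the replicate block 1 member, Ephx1, was called in chow-fasted Plvap knockouts (0 without it), 2 in Cav1 knockouts (0 without it), and 0 in western against high-fat knockouts (1 without it), where the letters share only a number. Of all genes the block called 713 in place of 289, 594 in place of 607, and 523 in place of 1143 in these comparisons, in that order. In refed livers, where same-lettered libraries correlated, the replicate block gave 0 members called, as without it, and 30 genes in place of 3. It changed no other count of members where it was run. Of the comparisons in the joint model, only the mean over 4 states was refitted with the block. The causes were not tested. Leaving out each library in turn gave 0 to 1 members called in Cav1 knockouts, in western against high-fat diet in either genotype, and in the mean over 4 states. It gave 0 to 2 in western-diet controls against chow, 1 to 3 in western-diet knockouts, 4 to 5 in high-fat livers of either genotype, 3 to 6 in refed controls and 4 to 5 in refed knockouts, and 0 in all other comparisons. The counts of all genes called in these runs are not given. By depth, Nqo1 had the fewest counts of the members, 3313 over 46 libraries, then Gsta2 with 6984 and Gstm3 with 8955.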
